A study of Danio rerio with 4 samples.

Results

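Collagens are the main structural proteins of the extracellular matrix, and each collagen molecule is built from chains encoded by a large gene family. Their genes were followed here in whole zebrafish embryos (Danio rerio) with and without morpholinos against rbm14. All gene symbols made of "col", a type number, "a" and a chain number were taken, which gave 52 symbols of the 28697 in the deposited tables. Of these, col4a3bpa and col4a3bpb encode ceramide transfer proteins named for binding a type IV collagen chain, and they are no collagens. The other 50 symbols are the collagen chain genes described here, with 16 fibrillar, 10 basement membrane and 24 other collagens. The 2 ceramide transfer genes stood at 13.2 and 8.53 TPM in the 10 hpf control library and at 3.59 and 2.85 TPM in the 24 hpf control library, and they enter no count below.

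The study concerns the role of Rbm14, an RNA-binding protein, in patterning the dorsoventral axis. One-cell embryos were injected with 2 nl holding 8 ng of control morpholino, or 4 ng each of morpholinos against rbm14a and rbm14b; morpholinos are antisense oligomers directed at an mRNA. Both treatments also carried 300 pg of GFP mRNA as an injection marker, and the embryos grew in Holtfreter's solution. Poly(A) RNA came from pools of 50 embryos, with 1 library for each treatment at 10 hours post fertilization (hpf), the end of gastrulation, and 1 at 24 hpf, when somites, notochord and epidermis have formed. The labels name no strain, and they do not say whether the morpholinos block translation or splicing.

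With 1 library in each of the 4 groups there is no replicate error, no test was possible, and every difference describes the 2 libraries compared. Values are TPM, a transcript abundance whose sum is fixed for each library. They are scaled to transcript length and can be compared between genes, but they hide the sequencing depth. The libraries had between 6305 and 8866 genes at 5 TPM or more. The targeted genes were present throughout, rbm14a with 169.9 and 254 TPM at 10 hpf (control, then rbm14 library) and 70.5 and 82.7 TPM at 24 hpf. In the same order rbm14b had 28.8, 19.3, 21 and 28.2 TPM. These mRNA levels do not measure the knockdown, because a morpholino that blocks translation need not lower its target. In whole embryos, fewer cells of a type and less RNA per cell cannot be told apart.

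A collagen chain carries long runs of a repeated glycine motif, through which chains of the same or related kinds wind into a helix in the endoplasmic reticulum. Fibrillar collagens (types I, II, III, V, XI, XXIV and XXVII) are trimmed outside the cell and pack into fibrils, type I in skin, bone and tendon and type II in cartilage and the notochord sheath. Type IV collagen forms the network of basement membranes, to which types VII, XV and XVIII attach. Other collagens decorate fibrils (the FACIT group, with types IX, XII, XIV and XVI), form beaded filaments (type VI) or short-chain networks (types VIII and X), or span the cell membrane (type XVII).

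At 10 hpf collagen mRNA was scarce in both libraries. The 50 genes together held 23.3 TPM under the control and 15.03 TPM under the rbm14 morpholinos, an order kept for pairs of values below, and the highest single value was 4.30 TPM. This belonged to col8a1a, a short-chain collagen needed in the zebrafish notochord, which had 4.30 and 2.59 TPM. Next came col4a5, a type IV chain, with 3.09 and 0.87 TPM, and col10a1a, a chain known from hypertrophic cartilage, with 3.0 and 1.05 TPM. The hemidesmosome collagen gene col17a1a stood at 1.02 and 0.39 TPM. For each of these genes the control library held the higher value. The reverse held for col14a1b, a FACIT chain gene with 0.55 and 1.98 TPM, and for col28a1a, a chain with von Willebrand type A domains, with 0.80 and 1.41 TPM.

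Summed by class, the control and rbm14 libraries at 10 hpf held 6.94 and 4.55 TPM of fibrillar, 4.67 and 2.17 TPM of basement membrane and 11.7 and 8.31 TPM of other collagen mRNA. Among single genes 30 of the 50 were higher in the control library, 11 were higher in the rbm14 library and 9 were equal, 4 of them at 0 in both. As deposited, the median log2 ratio of rbm14 over control was −0.29 over all genes at 1 TPM or more in either library. The counts of 30 and 11 are therefore not read as a trait of collagens. Only 9 of the 50 collagen genes reached 1 TPM in either library, and at an unknown depth most of their values cannot be read further.

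Ratios between libraries were taken after the general shift between them was removed by a trimmed mean, and are given as log2(TPM + 0.5), which understates the difference of genes of low TPM. A gene was called past the size rule if it differed at least 2-fold and reached 5 TPM in the higher library. At 10 hpf 9.12% of the 7321 genes that reached 5 TPM were past the rule (3.57% higher and 5.56% lower), but no collagen gene reached 5 TPM, so none could be called. For col4a5 the log2 ratio of rbm14 over control was −1.20 and for col14a1b it was 1.41, both without the required level.

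At 24 hpf collagen mRNA summed to 2065 and 1774 TPM. From 10 to 24 hpf 46 of the 50 genes had a higher TPM in the control libraries and 4 a lower one, and in the rbm14 libraries 44 were higher, 3 lower and 3 equal. With no TPM floor 38 members were at least 2-fold higher and 2 lower after rescaling in the controls, and 38 and 1 in the rbm14 libraries, where 19.9% and 24.4% of all symbols were higher and 9.79% and 9.70% lower. The size rule called 22 members higher in the controls and 26 in the rbm14 libraries, where it called 29.6% and 35.4% of all genes at 5 TPM higher (52.7% and 57.4% in either direction, 23.1% and 22.1% lower). Since no collagen gene reached 5 TPM at 10 hpf, each of these passed the floor by its 24 hpf level and none could be called lower, so nothing is read from these calls against the shares of all genes. The stage comparisons share their 24 hpf libraries with the comparison at 24 hpf, so they are no independent check on it.

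The genes furthest apart between the stages were mostly fibrillar. In the control libraries col1a1a, an alpha 1 chain of type I, went from 1.77 to 579 TPM, and in the rbm14 libraries it went from 0.92 to 458 TPM. For col2a1a, the main type II chain gene, the values were 0.99 and 389 TPM in the controls and 0.74 and 343 TPM with the rbm14 morpholinos. The gene of the alpha 2 chain of type I, col1a2, went from 1.22 to 266 TPM and from 0.79 to 166 TPM, and its partner col1a1b from 0.17 to 105 TPM and from 0.02 to 48.3 TPM. The paralog col2a1b went from 0.98 to 148 TPM and from 1.02 to 142 TPM, and the type IX chain gene col9a1b from 0.11 to 80.5 TPM and from 0.05 to 39.1 TPM. These 6 genes make up the 5 highest stage ratios of each treatment, and with 10 hpf levels near 0 the size of each ratio depends on the pseudocount. A few genes had their higher level at 10 hpf. In the controls col10a1a went from 3.0 to 0.17 TPM and col17a1a from 1.02 to 0.10 TPM, and in the rbm14 libraries col10a1a was listed at 0 at 24 hpf and col17a1a at 0.09 TPM.

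**Figure D1:**
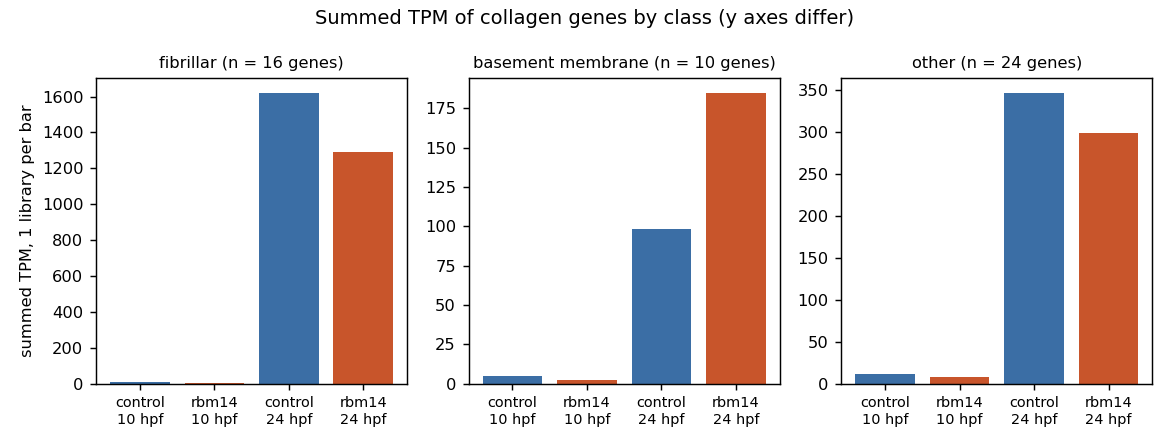
Summed TPM (y axis, from 0, with a separate scale in each panel) of the fibrillar, basement membrane and other collagen genes in the 4 libraries (x axis, blue for control and orange for rbm14 morpholinos, 1 library per bar). At 24 hpf fibrillar mRNA was 1620.1 and 1291 TPM, and basement membrane mRNA 98.3 and 185 TPM.

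At 24 hpf the makeup of the collagen pool differed between the libraries. Fibrillar genes held 1620.1 and 1291 TPM, basement membrane genes 98.3 and 185 TPM, and the others 346 and 298 TPM. The rbm14 library thus had 0.797 times the fibrillar, 1.88 times the basement membrane and 0.861 times the other TPM of the control, before any rescaling. Their shares of collagen mRNA were 78.5% and 72.8% for fibrillar genes, 4.76% and 10.4% for basement membrane genes and 16.8% in each library for the others. Within the basement membrane class the types differed. Type IV held 55 and 72.3 TPM, 1.31 times the control as deposited, which is below the general shift of 1.56 times. Type VII held 11.37 and 32.54 TPM (2.86 times), and types XV and XVIII together 31.92 and 79.95 TPM (2.50 times). The fibrillar genes held 16.5 times the TPM of the basement membrane genes in the control library and 6.98 times in the rbm14 library. A ratio of this kind, taken within a library, does not depend on how libraries are scaled to each other.

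**Figure D2:**
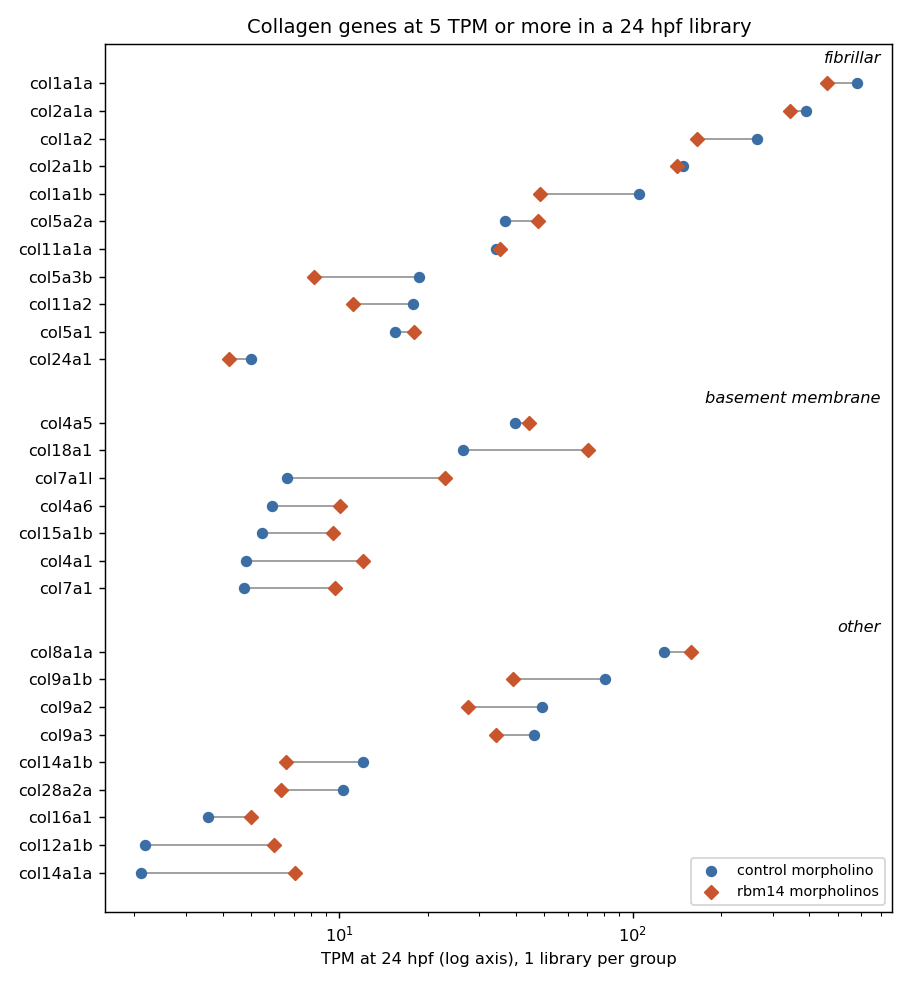
TPM at 24 hpf (x axis, log scale) of the 27 collagen genes that reached 5 TPM in either library (y axis, by class), with blue circles for the control and orange diamonds for the rbm14 morpholino library, 1 library each. As deposited, all 7 basement membrane genes lie higher in the rbm14 library, where alone col4a1 and col7a1 reach 5 TPM, and 8 of the 11 fibrillar genes lower; after rescaling col4a5 is lower too (log2 ratio −0.47).

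After rescaling, 9 collagen genes were past the size rule as lower in the rbm14 library at 24 hpf and 1 as higher, of 27 that reached 5 TPM. That is 33.3% lower and 3.70% higher, where 8.85% of 9121 genes at that level were lower and 7.01% higher (15.9% in either direction). All 10 were among the 21 members at 5 TPM or more in both libraries. The lower genes were 4 fibrillar and 5 other collagens, and the higher one was a basement membrane collagen. This split depends on the scaling. The rbm14 library stood above the control by a general shift of 0.64 on the log2 scale, and without its removal 3 collagen genes were past the rule as lower (col1a1b, col5a3b and col9a1b) and 5 as higher (col7a1l, col14a1a, col18a1, col12a1b and col4a1). On that scale 2.74% of all genes at 5 TPM were lower and 27% higher (29.7% in either direction), so the shift moves the calls of all genes as well. Without rescaling 6 of the 9 lower collagen genes lost the call. Their log2 ratios were then −0.68 (col1a2), −0.83 (col9a2), −0.43 (col9a3), −0.65 (col11a2), −0.83 (col14a1b) and −0.66 (col28a2a).

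Of the other members, 11 lay between 1 and 5 TPM at 24 hpf and 12 stayed under 1 TPM, so that these 23 could not be called. Over the 38 members at 1 TPM or more in either library, the median log2 ratio was −0.66 rescaled and −0.06 as deposited, beside medians of 0.08 and 0.65 over 14909 genes chosen in the same way. For the 13 fibrillar members the medians were −0.81 rescaled and −0.18 as deposited, for the 10 basement membrane members 0.26 and 0.86, and for the 15 others −0.93 and −0.43. On either scale the fibrillar and other medians lay below that of all genes and the basement membrane median above it.

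**Figure D3:**
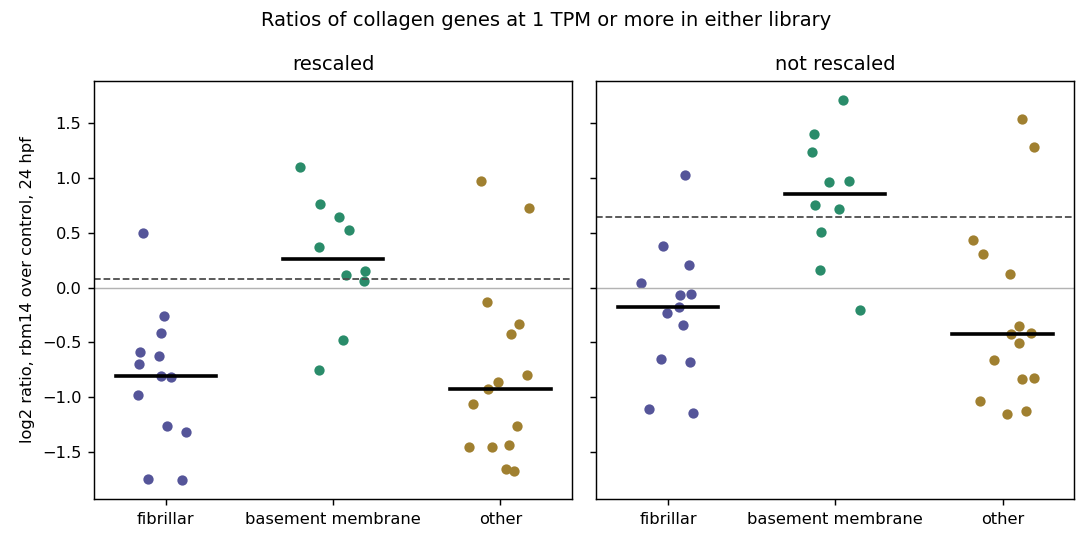
Log2 ratio of rbm14 over control at 24 hpf (y axis, log2(TPM + 0.5)) for the 38 collagen genes at 1 TPM or more in either library, by class (x axis), rescaled on the left and as deposited on the right; horizontal offsets within a class carry no value. Short black lines are class medians (−0.81, 0.26 and −0.93 rescaled) and the dashed line is the median of all genes (0.08 rescaled, 0.65 as deposited).

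Type I collagen was the most abundant type, with 949.6 and 673 TPM at 24 hpf. The gene col1a1a ranked 229 and 269 among all genes by TPM, with 579 and 458 TPM, and its log2 ratio of −0.98 (1.97-fold) fell just short of the rule. Its paralog col1a1b had 105 and 48.3 TPM, 3.34-fold lower after rescaling, and col1a2 had 266 and 166 TPM, 2.49-fold lower. The paralogs therefore did not keep their proportion, with 5.54 parts of col1a1a to 1 of col1a1b in the control and 9.49 in the rbm14 library. The sum of the alpha 1 genes stood at 2.57 times col1a2 in the control and 3.05 times in the rbm14 library. Reads of such paralogs can be assigned to either gene, and the proportion is uncertain to that extent.

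Type II collagen, the fibrillar collagen of the notochord sheath and of later cartilage, differed less, with 537 and 485 TPM in all. The gene col2a1a had 389 and 343 TPM (log2 ratio −0.82) and col2a1b 148 and 142 TPM (−0.70). Neither was past the rule, and as deposited their ratios were −0.18 and −0.06. The proportion of col2a1a to col2a1b was 2.63 and 2.43. Type I held 1.77 times the TPM of type II in the control and 1.39 times in the rbm14 library.

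Types V and XI are minor fibrillar collagens that start and limit fibril growth, type V with type I and type XI with type II. Their chains differed among themselves. The gene col5a3b had 18.7 and 8.19 TPM, 3.37-fold lower and the lowest rescaled ratio of any collagen gene, and col11a2 had 17.8 and 11.2 TPM, 2.402-fold lower. Several partner chains stood at similar or higher TPM in the rbm14 library, namely col5a1 with 15.5 and 18.01 TPM, col5a2a with 36.6 and 47.6 TPM and col11a1a with 34.2 and 35.2 TPM. Their rescaled log2 ratios were below 0, at −0.41, −0.25 and −0.59. The gene col5a3b thus stood at 1.20 times col5a1 in the control library and 0.45 times in the rbm14 library, and col11a1a at 1.93 and 3.15 times col11a2. As whole types, type XI held 0.105 and 0.104 of the TPM of type II, and type V 0.0763 and 0.116 of that of type I.

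Of the remaining fibrillar genes, col24a1 had 5.01 and 4.2 TPM (log2 ratio −0.81) and col11a1b 4.18 and 4.00 TPM (−0.63). In contrast, col5a3a, a paralog of col5a3b, had 1.64 and 3.87 TPM (0.50). The genes col5a2b, col27a1a and col27a1b stayed below 1 TPM in every library.

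Of the 10 basement membrane collagen genes 9 had a higher TPM in the rbm14 library at 24 hpf and 1, col4a4, a lower one. The 7 that reached 5 TPM in either library, 5 of them in the control, stood at 1.12 to 3.44 times the control as deposited, where the general shift was 1.56 times, so that after rescaling col4a5 was lower. Of the 10 genes of the class 8 had a rescaled log2 ratio above 0, as had 8179 of the 14909 genes at 1 TPM or more in either library. The gene col7a1l, named for its likeness to the anchoring fibril collagen VII, had 6.64 and 22.9 TPM and was 2.14-fold higher after rescaling. Its relative col7a1 had 4.73 and 9.69 TPM (log2 ratio 0.37). The multiplexin gene col18a1, whose protein is the source of the fragment endostatin, had 26.5 and 70.4 TPM (0.76), which put it at 0.67 times col4a5 in the control and 1.59 times in the rbm14 library. The other multiplexin gene, col15a1b, had 5.46 and 9.52 TPM (0.15). After rescaling, col7a1l alone was past the rule in this class.

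In mammals the type IV genes lie in pairs around shared promoters, and in the reference assembly GRCz12tu col4a1 neighbours col4a2, col4a3 neighbours col4a4 and col4a5 neighbours col4a6. The pair col4a5 and col4a6 was the most abundant, with 39.7 and 44.4 TPM for col4a5 (log2 ratio −0.47) and 5.91 and 10.0 TPM for col4a6 (0.11). The gene col4a1 had 4.80 and 12 TPM (0.64) and col4a2 0.73 and 1.91 TPM (0.52). The genes of that pair kept a similar proportion, with 6.58 parts of col4a1 to 1 of col4a2 in the control and 6.28 in the rbm14 library. Between col4a5 and col4a6 the proportion was 6.72 and 4.43. For the remaining pair, col4a3 had 0.92 and 1.52 TPM (0.06) and col4a4 2.92 and 2.46 TPM (−0.75), and col4a4 was the basement membrane collagen gene with the lowest ratio.

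Type IX collagen, which coats type II fibrils, was lower in the rbm14 library at 24 hpf. The gene col9a1b had 80.5 and 39.1 TPM (3.17-fold lower after rescaling), col9a2 had 49.0 and 27.4 TPM (2.74-fold) and col9a3 had 46.1 and 34.2 TPM (2.08-fold). The minor gene col9a1a had 1.13 and 0.25 TPM (log2 ratio −1.45). All 4 type IX genes were also lower as deposited, and the type held 0.329 of the TPM of type II in the control and 0.208 in the rbm14 library. Their proportions differed, since col9a1b stood at 1.75 times col9a3 in the control library and at 1.14 times in the rbm14 library.

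Among the FACIT genes outside type IX the paralogs of type XIV differed in direction. The gene col14a1b had 12.1 and 6.56 TPM, 2.70-fold lower, while col14a1a had 2.11 and 7.05 TPM, 1.96-fold higher after rescaling and just short of the rule. The control library thus held 5.72 parts of col14a1b to 1 of col14a1a, and the rbm14 library 0.93. Type XII showed a smaller contrast, with 2.17 and 5.98 TPM for col12a1b (log2 ratio 0.72) and 2.74 and 3.02 TPM for col12a1a (−0.43). The gene col16a1 had 3.57 and 5.01 TPM (−0.13).

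The short-chain gene col8a1a was the most abundant collagen outside the fibrillar class, with 128 and 158 TPM at 24 hpf (log2 ratio −0.33, and 0.30 as deposited). The gene col28a2a had 10.3 and 6.35 TPM, 2.40-fold lower after rescaling. The beaded filament genes of type VI, which link cells to the interstitial matrix, were all low and all lower in the rbm14 library, together 7.33 and 3.87 TPM. The lowest ratio among them was that of col6a3, with 3.21 and 1.17 TPM (−1.65). The transmembrane genes col17a1a and col17a1b, the cartilage genes col10a1a and col10a1b, and col8a1b, col8a2, col19a1, col28a1a and col28a1b were under 1 TPM in both 24 hpf libraries.

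The tables list 129 transcripts for the 50 genes, and several genes differed in which transcript they used. Of 21 members at 5 TPM or more in both 24 hpf libraries, 16 had more than 1 transcript, and in 3 of them the leading transcript was another one in the rbm14 library. The share of all genes with another leading transcript was not computed, so this count is not read as a trait of collagens. The largest difference was that of col9a2. Its transcript ENSDART00000033037 had 38.6 and 2.32 TPM, or 78.8% and 8.46% of the gene, and ENSDART00000035093 had 10.0 and 24.5 TPM, or 20.4% and 89.3%. The gene was thus lower in sum while one of its transcripts was higher. For col11a2, ENSDART00000104799 went from 48.4% to 18.6% of the gene (8.60 and 2.08 TPM) and ENSDART00000151138 from 19.8% to 40.6% (3.52 and 4.54 TPM). For col5a1 the leading transcript changed with a smaller shift, as ENSDART00000159645 held 54.3% and 42.2%. Shares of col18a1 and col4a5 transcripts moved by less than 10 percentage points. Such shares rest on how the authors' tool split reads between transcripts, and with 1 library each they have no error.

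**Figure D4:**
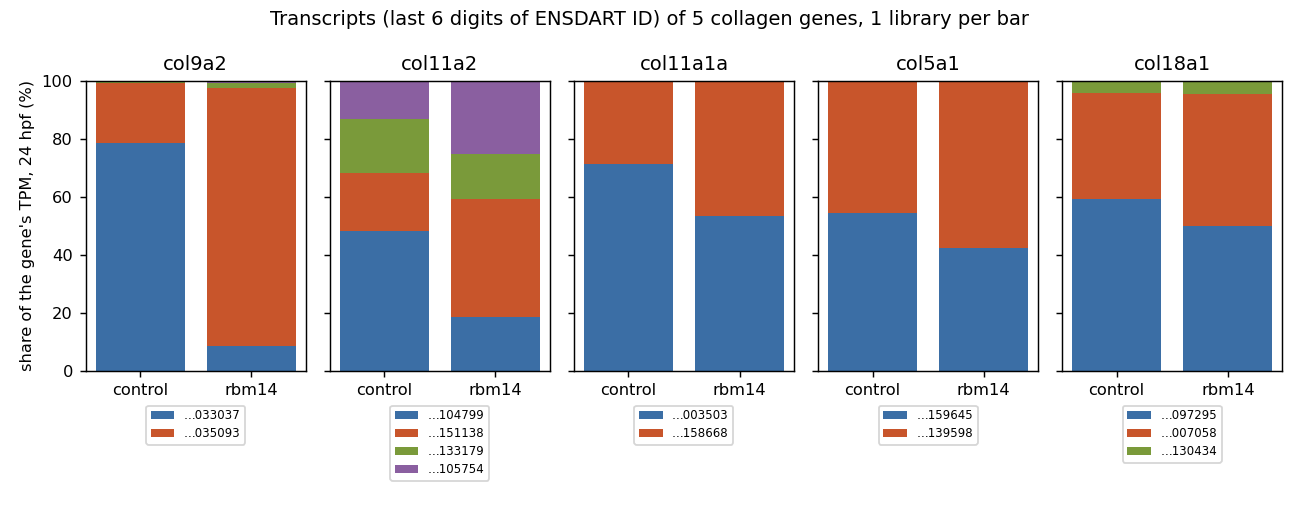
Share of each gene's TPM (y axis, percent) held by its transcripts in the control and rbm14 morpholino libraries at 24 hpf (x axis, 1 library per bar) for 5 collagen genes, with transcripts named by the end of their ENSDART identifiers. In col9a2 the blue transcript goes from 78.8% to 8.46%, while in col18a1 the shares stay close.

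Collagen chains are hydroxylated, folded, exported, trimmed and crosslinked by dedicated proteins, and lists of these genes were read in the same way. At 24 hpf 4 genes among the enzymes, chaperones and export factors that act inside the cell were past the rule as higher and 1 as lower, of 26 at 5 TPM or more (15.4% and 3.85%, beside 7.01% and 8.85% of all genes). Of the 4, p4ha1a and creb3l2 reached 5 TPM only in the rbm14 library, where they were high, so the 15.4% is not read as a trait of these lists. Without rescaling 10 were higher and none lower, where 27% of all genes were higher. Of 10 prolyl and lysyl hydroxylase list genes at 5 TPM or more, 1 was past the rule as higher and none as lower (median log2 ratio 0.38 over 12 at 1 TPM or more). The higher one was p4ha1a, a prolyl hydroxylase subunit gene, with 2.44 and 11.1 TPM (2.65-fold). Among 16 chaperone, glycosylation and export genes 3 were higher and 1 was lower (median 0.26 over 20). The gene creb3l2, whose product activates genes of the secretory pathway and is required for collagen export in zebrafish, had 4.33 and 24.8 TPM (3.44-fold higher). The collagen chaperone gene serpinh1a, which encodes an Hsp47, had 69.4 and 248 TPM (2.29-fold higher), and the trafficking gene trappc2 had 17.2 and 12.5 TPM (2.098-fold lower).

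Genes that act outside the cell had fewer members at measurable levels. Only 1 procollagen protease or enhancer gene reached 5 TPM at 24 hpf, and it was not past the rule. Of 5 crosslinking genes 2 were lower, the transglutaminase gene tgm2b with 8.48 and 5.54 TPM (log2 ratio −1.17) and the lysyl oxidase-like gene loxl3b with 5.32 and 3.63 TPM (−1.07). Without rescaling neither was past the rule (−0.57 and −0.49), and loxl3b reached 5 TPM only in the control library. Over all genes 8.85% were lower on the rescaled values. Of 7 genes for matrix proteases and their inhibitors 2 were higher and 1 lower (28.6% and 14.3%, beside 7.01% and 8.85% of all genes). Without rescaling 2 were higher and none lower, where 27% of all genes were higher and 2.74% lower. The collagenase gene mmp13a had 0.30 and 7.34 TPM (2.87), the gelatinase gene mmp2 13.6 and 83.9 TPM (1.96) and the cathepsin gene ctsk 7.39 and 4.17 TPM (−1.34). Only in the rbm14 library did mmp13a reach 5 TPM, and only in the control library did ctsk, so these shares are not read as a trait of the list.

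Laminins and nidogens share the basement membrane with type IV collagen. Of 12 genes of that list at 5 TPM or more, 2 were higher at 24 hpf and 1 was lower (16.7% and 8.33%, beside 7.01% and 8.85% of all genes; median log2 ratio 0.12 over 15). Without rescaling 6 were higher and none lower, where 27% and 2.74% of all genes were. The laminin chain genes lama1 (3.59 and 24.4 TPM, 4.02-fold) and lamc1 (11.5 and 40.8 TPM, 2.23-fold) were higher. As lama1 reached 5 TPM only in the rbm14 library, the 16.7% is not read as a trait of the list. The gene sparc, whose product binds collagens, had 226.6 and 161 TPM (2.18-fold lower). Of 26 other matrix genes 5 were higher and 6 lower (19.2% and 23.1%, median −0.03 over 35). The balance of these directions turns on the scaling, since without it 8 were higher and 2, and1 and fmoda, lower. The actinodin gene and1, which builds the fin fold rays together with collagen, had 24.5 and 3.49 TPM (9.42-fold lower), the collagen-binding proteoglycan gene fmoda 52.0 and 25.2 TPM (3.17-fold lower) and the notochord matrix gene emilin3a 61.4 and 300.4 TPM (3.12-fold higher). Among these, and1 reached 5 TPM only in the control library. None of 2 collagen receptor genes at 5 TPM was past the rule, and without rescaling itgb1a was higher.

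**Figure D5:**
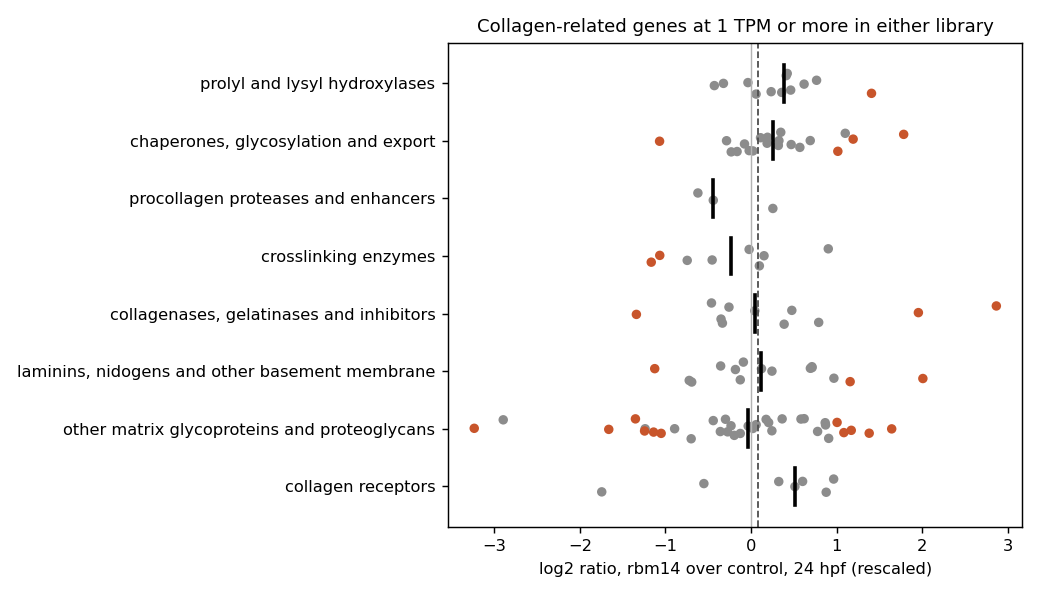
Log2 ratio of rbm14 over control at 24 hpf (x axis, rescaled log2(TPM + 0.5)) for genes of 8 collagen-related lists at 1 TPM or more in either library (y axis, vertical offsets carry no value), with genes past the size rule in orange, list medians as black lines and the median of all genes (0.08) dashed. The hydroxylase and export lists have medians of 0.38 and 0.26, and and1 is the lowest point of all lists.

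At 10 hpf 4 of the 37 genes of these lists at 5 TPM or more were past the rule as lower and none as higher, or 10.8%, beside 5.56% of all genes lower and 3.57% higher. Without rescaling 8 were lower and none higher. On that scale the median log2 ratio over all genes at 1 TPM or more in either library was −0.29. The share of all genes past the rule was not computed there, so these 8 are not read against it. The 4 were the prolyl hydroxylase gene p3h1 (8.85 and 3.2 TPM, 2.16-fold), the laminin gene lamb1a (65.2 and 15.4 TPM, 3.49-fold), the fibronectin gene fn1b (11.7 and 3.38 TPM, 2.69-fold) and emilin3a (6.36 and 2.43 TPM, 2.01-fold). Of these lamb1a alone reached 5 TPM in both libraries. The genes p3h1, fn1b and emilin3a reached it only in the control library, where they were high, so the 10.8% is not read as a trait of these lists. Fibronectin and laminin are among the earliest matrix proteins of the embryo.

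Markers of cell types known for collagen expression were measured in the same libraries. Their summed TPM is given as deposited, while their median log2 ratios are rescaled. Over the 6 notochord markers found, summed TPM at 24 hpf was 148 and 196 as deposited (median rescaled log2 ratio 0.16) and none was past the rule. Without rescaling noto and foxj1a were higher, but so were 27% of all genes at 5 TPM or more, so this is not read as a trait of the markers. Of the 7 sclerotome markers at 5 TPM or more 4 were lower and none higher, beside 8.85% of all genes lower (median −0.86 over 8, 391 and 367 TPM summed), with pax9 at 5.28 and 2.49 TPM and twist1b at 35.9 and 18.8 TPM. The list was not uniform. As deposited foxc1a had 107 and 141 TPM and foxc1b 91.1 and 95.4 TPM (rescaled log2 ratios −0.24 and −0.57). The marker pax1b, with 0.71 and 1.93 TPM, alone had a rescaled ratio above 0 (0.56). Only in the control library did pax9 reach 5 TPM. Without rescaling none of the 7 was past the rule, and pax9 and twist1b had log2 ratios of −0.95 and −0.91. Epidermis and fin fold markers summed to 29869 and 37959 TPM (median −0.32 over 8). Of this sum krt4 alone held 22221 and 27700 TPM, with a rescaled log2 ratio of −0.32. The only marker of this list past the rule was and1. The marker and2 had 4.16 and 0.33 TPM (log2 ratio −2.90) and did not reach the 5 TPM that the rule asks for. The 5 muscle markers had 1 lower, tnnt3b with 48.0 and 12.5 TPM (median −0.53, 4406 and 3835 TPM summed). Of this sum actc1b alone held 3907 and 3164 TPM (rescaled log2 ratio −0.94), while myog had 261 and 444 TPM (0.12). The 5 endothelial markers (median 0.35, 43.5 and 71.7 TPM) and the 4 neural crest markers (−0.20, 322 and 433 TPM) had none past the rule. Without rescaling the endothelial gene cdh5 was higher, as were 27% of all genes at 5 TPM or more. At 24 hpf no listed marker that was found stood at 0 in both libraries. The part of these cell types in the collagen differences was not tested.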

How the data were processed

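Each of the 4 libraries came as TPM, deposited by the authors for 57596 Ensembl transcripts paired with gene symbols; the values sum to 1000000 per library, which gave the unit. Trimmomatic 0.30, HISAT2 2.0.1, HTSeq 0.6.1 and GRCz10 are named, without roles, per the submitters' processing notes. Neither the transcript-level tool nor strandedness is given in the sources used here. No counting interval was computed, because TPM keeps no depth.

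Transcripts were summed by symbol (Python 3.11.15, pandas 2.3.3). Library pairs were put on a common scale with a trimmed mean, unweighted, of the log2 ratios of genes at 1 TPM or more in both (30% of ratios and 5% of levels trimmed per end), before 0.5 TPM was added as pseudocount. The shifts removed (log2) were −0.25 for rbm14 over control at 10 hpf, 0.64 at 24 hpf, and −0.52 and 0.37 for 24 over 10 hpf in the control and rbm14 libraries. The size rule asked for 2-fold and 5 TPM in the higher library, and list medians used genes at 1 TPM in either. The ratio code was tested on simulated data. No p-value was computed.

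Named in full were the 6 members of each class with the highest mean TPM, members past the rule, the 5 extreme members of the stage comparisons and up to 3 genes past the rule per list. The other members, the markers pax1b, foxc1a, foxc1b, krt4, and2, actc1b and myog, and the list genes named for their values without rescaling were added after their values were seen. The list counts without rescaling were chosen after seeing the data. Members and lists were chosen with earlier results of these data known. All 50 symbols matched a reference table of assembly GRCz12tu, which served for names and neighbours. The 8 alternatives of scaling, pseudocount, filter, transcript choice and symbol matching that were planned were all run.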

Additional observations from a re-analysis of the deposited data

Results flagged for a closer look

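Genes were flagged where the rbm14 and control morpholino libraries differed at least 2-fold after rescaling, in opposite directions at the stages. They also had to hold 1 TPM or more in either library at each stage. With 1 library per group the difference between the stages was not tested. The FACIT chain gene col14a1b had a log2 ratio of 1.41 at 10 hpf, where it held 0.55 and 1.98 TPM, and −1.43 at 24 hpf. The notochord matrix gene emilin3a had −1.01 at 10 hpf and 1.64 at 24 hpf. The transglutaminase gene tgm2b had 1.17 at 10 hpf, from 0.28 and 1.10 TPM, and −1.17 at 24 hpf. Without rescaling the 24 hpf log2 ratios were −0.83 for col14a1b and −0.57 for tgm2b, both short of 2-fold, and 2.28 for emilin3a. At 10 hpf col14a1b and tgm2b also lay below the 5 TPM of the size rule and reached 1 TPM only in the rbm14 library, where they were high. There emilin3a was 2.01-fold lower, close to the 2-fold limit. The share of all genes flagged in this way is not given, so these flags are not read as a trait of the genes.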

How the results depend on the processing

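The limits of these values are those of 1 library per group, an unknown depth, and a scaling on which the split of higher and lower genes at 24 hpf depends. No paired analysis was possible because each group has 1 library. A changed pseudocount moves the stage medians below because 10 hpf levels are near 0, and a changed floor alters which genes enter a median. The causes of the other changes were not tested. At a floor of 20 TPM no class median could be given for rbm14 over control at 10 hpf, because no collagen gene reached it.

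At 24 hpf, rbm14 over control, 10 collagen genes were past the size rule, and 5 were with a pseudocount of 5 TPM and 6 at a floor of 20 TPM. With the pseudocount of 5 TPM all 5 were lower, so col7a1l, the only higher gene, lost its call. Without rescaling there were 8 (5 higher, 3 lower), and the class medians were −0.18 (fibrillar) and 0.86 (basement membrane). A pseudocount of 5 TPM put the median of the other collagens at −0.30. At 10 hpf no gene was past the rule, and 2 were with no TPM floor. There the basement membrane median of −1.20 (col4a5 alone) became −0.40 with a pseudocount of 5 TPM and 0.038 with no floor, and the median of the other collagens (−0.42) became 0.039 with the most abundant transcript per symbol. That choice also lowered the summed TPM of basement membrane genes to 2.45 and 1.12 TPM at 10 hpf (control and rbm14) and to 111 TPM in the 24 hpf rbm14 library. It lowered the 24 hpf control sum as well (col4a5 from 39.7 to 22.9 TPM, col18a1 from 26.5 to 15.7 TPM). The 111 TPM is therefore not to be set against the 98.3 TPM that the control held over all transcripts.

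For 24 over 10 hpf, 22 genes in the control and 26 in the rbm14 libraries were past the rule. In the controls there were 40 with no floor (38 higher, 2 lower), and a floor of 20 TPM left 13 and 14. The fibrillar, basement membrane and other medians (5.52, 3.55 and 2.70 in the controls, 4.96, 4.04 and 3.08 with rbm14) became 7.51, 5.03 and 4.19, and 6.63, 5.40 and 4.65, with a pseudocount of 0.1 TPM. With 5 TPM they became 3.04, 1.18 and 0.70, and 2.71, 1.44 and 1.03. A floor of 20 TPM gave 7.62, 4.41 and 6.15, and 6.36, 5.27 and 5.58. With no floor the other medians were 1.98 and 1.21. Of the single genes named among the members, none past the rule changed sign under the 8 alternatives. Without rescaling 6 of the 10 members past the rule at 24 hpf lost the call and 4 others gained it.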

Other observations

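Symbols written in capitals, which are names carried over from other species, include 5 of collagen type (COL13A1, COL18A1 (1 of many), COL21A1, COL26A1 and COL28A1 (1 of many)) that the member rule does not match. The highest TPM of any of them in any library was 1.27.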
